A study of Mus musculus with 2 samples.

Results

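Fibronectin, the tenascins, the thrombospondins, periostin and SPARC were described in 1 control and 1 *Myl3*-KO library of primary chondrocytes. The 10 genes were picked by symbol, as *Fn1*, *Tnc*, *Tnxb*, *Tnn*, *Thbs1*, *Thbs2*, *Thbs3*, *Thbs4*, *Postn* and *Sparc*, and each was found once among the 22156 genes of the deposited table. By the study's general methods, primary chondrocytes came from the rib and articular cartilage of newborn mice on the C57BL/6J background and were grown as a monolayer. For these 2 libraries the study names no treatment and no passage. In *Myl3*-KO mice a Cre recombinase driven by the *Col2a1* promoter deletes floxed *Myl3*, whereas the controls are described as floxed littermates by the study and as WT by the labels. Whether cells of several animals were pooled is not given in the sources used here. The table heads its columns NC and KO, and NC was read as control because the remaining column is the knockout.

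Fibronectin is a secreted glycoprotein that cells assemble into fibrils through integrin receptors, and other matrix proteins are laid down on these fibrils. Tenascins, thrombospondins, periostin and SPARC are matricellular proteins, which sit in the matrix and modulate adhesion, collagen assembly and growth factor access more than they bear load. In cartilage, fibronectin and tenascin-C are known to be abundant in developing and damaged tissue, and chondrocytes kept in monolayer are known to turn from cartilage matrix towards fibronectin and type I collagen.

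*Fn1* was higher and the tenascin genes *Tnn* and *Tnc* were lower in the *Myl3*-KO library, while the thrombospondin genes, *Postn* and *Sparc* lay close to equal. In CPM, counts scaled to a library total of 1000000, *Fn1* was 1.46-fold higher (95% interval 1.45 to 1.48), *Tnn* 1.70-fold lower (1.58 to 1.83) and *Tnc* 1.35-fold lower (1.24 to 1.48). *Tnxb* was higher by more than any of these, but with 3 counts against 13. *Thbs4* had 0 counts in both libraries.

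With 1 library per genotype, no difference below has a replicate check. Intervals are 95% Clopper-Pearson intervals of the ratio and cover counting error only. The adjusted p-values come from a two-sided exact binomial test on the rounded counts with Benjamini-Hochberg adjustment over 12431 genes, those counted at least 10 times in the 2 libraries together. The test says whether the reads of the pair differ and does not bear on genotype. In all, 17612434.91 expected counts were assigned to genes in the control library and 13477976.98 in that of *Myl3*-KO, where 3 counts, taken as the floor, correspond to 0.170 and 0.223 CPM. Differences are log2 ratios of CPM, *Myl3*-KO over control, and levels of different genes are given in FPKM, the fragments scaled by gene length and library size. Ranks by count, and ratios of the counts of 2 genes, are not adjusted for length and compare the libraries, not the genes. *Myl3* itself had 0 counts in both libraries and could not check the labels. In bulk RNA, fewer cells of a type and less RNA per cell cannot be told apart.

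The labelled cell type was checked on 14 chondrocyte marker genes. Of these, *Acan*, *Matn1*, *Matn3*, *Hapln1* and *Cnmd* had 0 counts in both libraries, *Col2a1* had 30 and 27, so these defining cartilage matrix genes were absent or nearly so. The list summed to 126 CPM in each library, but its members went both ways. Of the 7 tested, 2 were higher and 1 lower by a log2 ratio of at least 0.5, against 7.99% and 3.75% of all genes tested. *Col11a2*, a fibrillar collagen gene, had 293 and 395 counts (log2 ratio 0.82, adjusted exact binomial p = 3.47e-12), and *Sox9*, the master transcription factor gene of chondrocytes, had 866 and 480 (-0.47, adjusted exact binomial p = 1.27e-07). *Chad* (7 and 8 counts, 0.58) and *Sox6* (14 and 7, -0.61) lay within counting error. The 9 fibroblast markers summed to 16201 CPM for the control and 18550 CPM for the knockout, most of it from *Col1a2*. Of the 8 that were tested, 2 were higher and 2 lower by at least 0.5 on the log2 scale, where 7.99% and 3.75% of all genes tested were, and *Thy1* was at 0 in both. The higher ones were *Pdgfra*, a growth factor receptor gene of mesenchymal cells, with 120 and 140 counts (0.61, adjusted exact binomial p = 0.0033), and *Twist2*, with 13 and 17 counts (0.77, within counting error). *Dcn*, which encodes the collagen-binding proteoglycan decorin, went from 631 to 155 counts (log2 ratio -1.64), and *Lum*, which encodes the related lumican, from 272 to 81 (-1.36). The other marker lists summed to 37.9 and 45.3 CPM for tendon, 178 and 189 for osteoblasts, 10.4 and 9.79 for smooth muscle, 4.14 and 21.5 for skeletal muscle (all from *Cdh15*, with the other 5 at 0), 13.1 and 21.7 for platelets (all from *Itga2b*), 4.71 and 4.30 for immune cells, 2.67 and 1.63 for endothelium, and 0 and 0.0742 for erythroid cells, in the control and *Myl3*-KO. Within these lists, *Egr1* of the tendon list went from 108 to 177 counts (log2 ratio 1.10). *Alpl*, the alkaline phosphatase gene of the osteoblast list, went from 46 to 7 (-2.33). *Egfl7* of the endothelial list went from 40 to 10 (-1.61), *Cdh15* from 73 to 290 (2.38) and *Itga2b* from 231 to 292 (0.72). No other tested gene of these lists passed a log2 ratio of 0.5. In the tendon list, *Scx* was at 0.13 and *Mkx* at -0.22. *Runx2*, which made up most of the osteoblast sum (168 and 181 CPM), was at 0.11 and *Sp7* at -0.10. *Pecam1* of the endothelial list was at 0.39, with 5 counts in each library. The 4 Y-linked genes had 0 counts in both libraries. *Xist*, also on the list for the sex of the animals, was not among the genes of the deposited table and could not be checked. What part these markers have in the differences below was not tested.

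The 10 genes together took 0.885% of the control library (exact 95% interval 0.880 to 0.889) and 1.05% of the *Myl3*-KO library (1.04 to 1.05). Levels spread widely among them. In the control, *Sparc* stood highest at 708.37 FPKM, followed by *Thbs1* at 494.27, *Fn1* at 379.94, *Postn* at 217.29, *Thbs2* at 78.76, *Tnn* at 25.24, *Thbs3* at 19.54, *Tnc* at 11.29 and *Tnxb* at 0.02. In *Myl3*-KO the order differed in 2 places. *Fn1* stood above *Thbs1*, at 558.41 against 541.76 FPKM, and *Thbs3* stood above *Tnn*, at 20.85 against 14.87. Among all 22156 genes of the table, *Sparc*, *Thbs1* and *Fn1* ranked 95, 133 and 178 by FPKM in the control and 87, 117 and 112 in *Myl3*-KO.

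**Figure D1:**
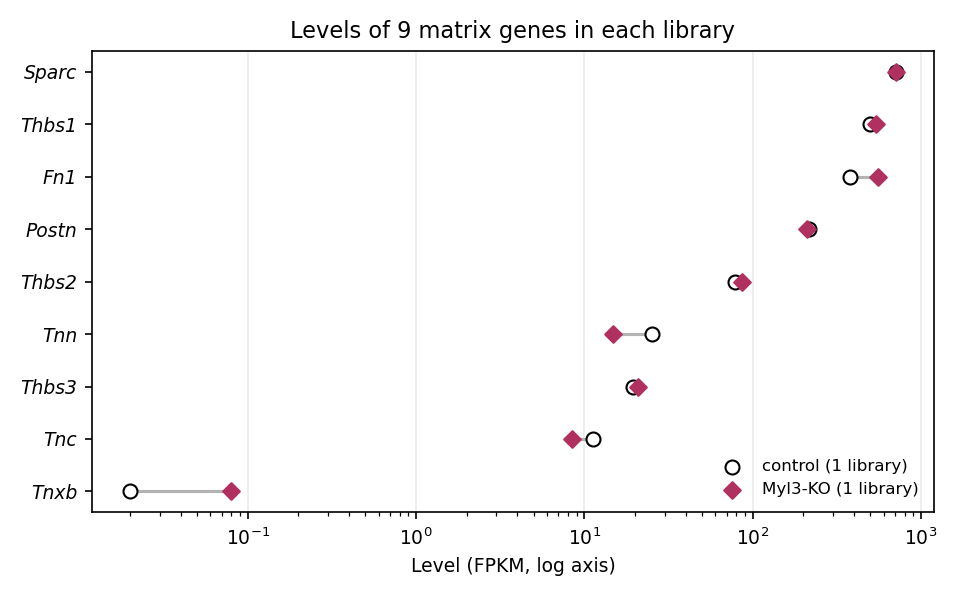
Level of each gene in FPKM on a log axis, with the control library as open circles and the *Myl3*-KO library as filled diamonds, joined by a line for each gene (1 library per genotype, no error bars). *Fn1* moves right from 379.94 to 558.41 and *Tnn* moves left from 25.24 to 14.87, while the symbols of *Sparc* lie on each other; *Thbs4*, at 0 in both, is not drawn.

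*Fn1* (ENSMUSG00000026193) lies on chromosome 1 of GRCm38 from 71585520 to 71653200, on the minus strand, and encodes fibronectin itself, the ligand of the integrin pair of *Itga5* and *Itgb1*. It was counted 53988 times in the control library and 60449 times in the smaller *Myl3*-KO library, or 3065 and 4485 CPM. The count was thus higher in *Myl3*-KO even before scaling. The log2 ratio was 0.55 (95% interval 0.53 to 0.57), and its share of the library went from 0.307% to 0.449%. *Fn1* was the gene with the 6th highest count in the control and the 5th highest in *Myl3*-KO. Among the 6385 genes with at least 1000 counts, its ratio was at place 55 from the top. The nearest tested genes, *Atic* at 5889 bases and *Mreg* at 506242 bases, had log2 ratios of -0.03 and 0.28, and their 95% intervals lay below that of *Fn1*.

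*Tnn* and *Tnc* are the tenascin genes with counts enough to compare. *Tnn* (chromosome 1 from 160085029 to 160153580, minus strand) encodes tenascin-N, also called tenascin-W, which is known from developing bone. *Tnc* (chromosome 4 from 63959785 to 64047015, minus strand) encodes tenascin-C, an adhesion-modulating protein of developing and injured connective tissue. Both were lower in *Myl3*-KO, *Tnn* by more. *Tnc* is the example shown, by the 250 bases before its outer start site, from RefSeq on GRCm38.p6. They are chr4:64047016-64047265 on the minus strand, written 5′ to 3′, with capitals for the motif matches named below.

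Tnc: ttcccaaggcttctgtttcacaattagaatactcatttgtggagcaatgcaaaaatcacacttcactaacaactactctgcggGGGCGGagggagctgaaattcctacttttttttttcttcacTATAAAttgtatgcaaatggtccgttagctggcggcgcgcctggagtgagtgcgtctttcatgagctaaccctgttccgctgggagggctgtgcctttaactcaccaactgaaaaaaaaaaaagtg

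The letters searched, on both strands, were GTGGGAA for RBPJ, the DNA-binding partner of Notch, then TATAAA for a TATA box, CCAAT, then GGGCGG for a GC box, TGANTCA for AP-1 and TGACGTCA for CRE. The window shown held a TATAAA starting at -126 from the start site and a GC box starting at -167, which do not overlap. A window before a second start site of *Tnc* at 64046936, which overlaps the printed window, held GTGGGAA starting at -82. The window of *Tnn* held CCAAT starting at -59 and no other of these letters. Of the 32851 promoter windows of this length, 5.42% held the RBPJ letters, 12.4% TATAAA, 33.8% CCAAT, 32.7% the GC box, 6.75% the AP-1 letters and 1.55% the CRE letters. RefSeq entries were found for 8 of the 10 genes, in 10 windows, of which 2 held the RBPJ letters (*Tnc* and *Thbs4*), 4 TATAAA, 3 CCAAT, 4 the GC box, 1 the AP-1 letters (*Tnxb*) and 0 the CRE letters. The overlapping windows of *Tnc* hold the same TATAAA and the same GC box, which are therefore counted in both. *Fn1* and *Thbs1* were not matched.

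*Tnn* was counted 2506 times in the control library and 1128 times in that of *Myl3*-KO. The log2 ratio was -0.77 (95% interval -0.87 to -0.66, adjusted exact binomial p = 6.27e-50). This was place 7 from the bottom among the 6385 genes with at least 1000 counts. The nearest tested genes, *Mrps14* and *Cop1*, had log2 ratios of -0.13 and -0.10.

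*Tnc* was counted 1408 times in the control library and 797 times in that of *Myl3*-KO. The log2 ratio was -0.43 (95% interval -0.56 to -0.31, adjusted exact binomial p = 1.29e-10), so *Tnc* was lower by less than *Tnn*. The ratio of *Tnn* to *Tnc* counts within a library, which no scaling can move, went from 1.78 to 1.42, a log2 change of -0.33 (95% counting interval -0.49 to -0.17). These ratios within a library were chosen after the values were seen. The nearest tested genes of *Tnc*, *Tmem268* and *Pappa*, had log2 ratios of 0.18 and -0.30.

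*Tnxb* (chromosome 17 from 34670535 to 34719815) encodes tenascin-X, a collagen-associated tenascin of skin and joints. It was counted 3 times in the control library and 13 times in that of *Myl3*-KO, which makes a log2 ratio of 2.50 with an interval from 0.64 to 4.95 (adjusted exact binomial p = 0.0139). The level was 0.02 FPKM in the control and 0.08 in *Myl3*-KO, the lowest of the 9 genes tested. Of the 31-base words of its transcripts, 9.69% also occur in *Tnxa*, and how many of its few counts came from the shared stretch cannot be told from the table. Over the 911 genes with 10 to 30 counts, the median log2 ratio was 0.12, and 95% lay between -1.52 and 1.97.

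The thrombospondin genes differed little between the libraries. *Thbs1* and *Thbs2* encode the trimeric thrombospondins, which inhibit vessel growth and, for thrombospondin-1, activate latent TGF-β. *Thbs1* (chromosome 2 from 118111876 to 118127133) had 50909 and 42701 counts, in the same order of control and knockout, a log2 ratio of 0.13 (95% interval 0.11 to 0.15). *Thbs2* (chromosome 17 from 14665500 to 14694235) had 8215 and 6923 counts, a log2 ratio of 0.14 (0.09 to 0.19). Both differed by more than the counting error (adjusted exact binomial p = 4.61e-42 and 4.99e-08), at ratios of 1.10-fold each. The ratio of *Thbs1* to *Thbs2* counts stood at 6.20 in the control library and 6.17 in the knockout library, a log2 change of -0.01 (-0.06 to 0.04).

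*Thbs3* and *Thbs4* encode pentameric thrombospondins, the subgroup to which the cartilage protein COMP belongs. *Thbs3* (chromosome 3 from 89215180 to 89226837) had 1098 and 870 counts, a log2 ratio of 0.05 (95% interval -0.08 to 0.18, adjusted exact binomial p = 0.617), a difference within counting error. Its locus overlaps that of *Mtx1* on the other strand, which had 673 and 491 counts, and 4.71% of its 31-base words occur there. The sources used here do not give the strand setting of the counting. *Thbs4* (chromosome 13 from 92751590 to 92794818) had 0 counts in both libraries, and *Comp* had 1 and 2, so both were at or under the floor of 3 counts and no difference was detectable at this depth.

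*Postn* (chromosome 3 from 54361109 to 54391037) encodes periostin, a matricellular protein of periosteum and ligament that binds integrins and collagen. It was counted 11656 times in the control library and 8467 times in that of *Myl3*-KO. The log2 ratio was -0.08 (95% interval -0.12 to -0.03, adjusted exact binomial p = 0.00138), or 1.05-fold lower. *Sparc* (chromosome 11 from 55394500 to 55423183) encodes a calcium- and collagen-binding glycoprotein of bone and other collagen-rich tissue. It had 26052 and 19987 counts, and its log2 ratio of 0.0037 lay within counting error (95% interval -0.02 to 0.03, adjusted exact binomial p = 0.886). Against *Sparc*, the *Fn1* count went from 2.07 to 3.02, a log2 change of 0.55 (95% counting interval 0.51 to 0.58) that needs no scaling. Against *Postn*, *Tnn* went from 0.215 to 0.133, a log2 change of -0.69 (-0.80 to -0.58).

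**Figure D2:**
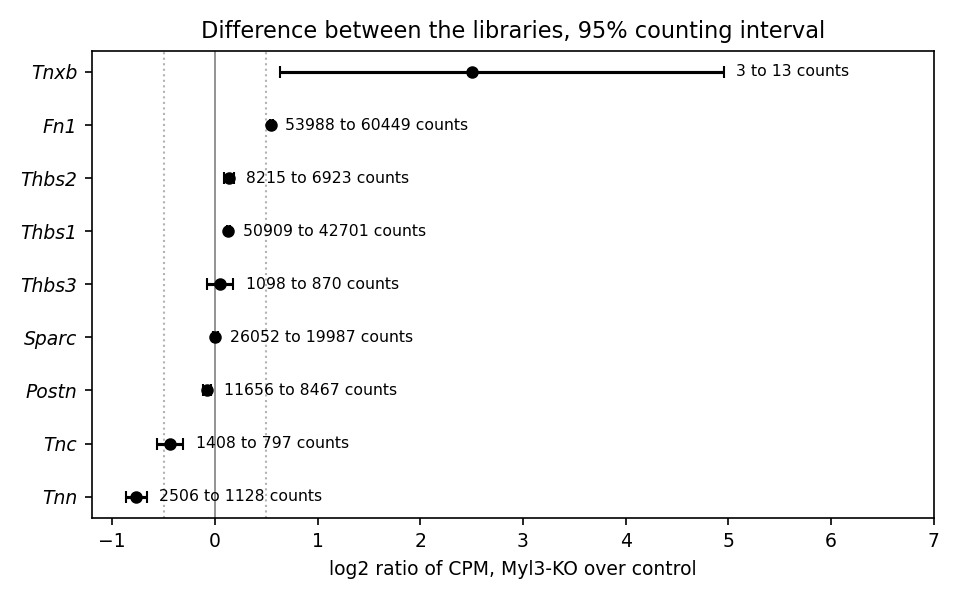
The log2 ratio of CPM, *Myl3*-KO over control, of the 9 genes tested, with the 95% counting interval as bars, dotted lines at 0.5 and -0.5, and the counts of the control and *Myl3*-KO library beside each point. *Fn1* at 0.55 and *Tnn* at -0.77 lie outside the dotted lines with short intervals, whereas that of *Tnxb* runs from 0.64 to 4.95.

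Set beside all genes tested, 2 of the 9 genes (*Fn1* and *Tnxb*) were higher by a log2 ratio of at least 0.5, against 7.99% of all, and 1 (*Tnn*) was lower by as much, against 3.75%. Past a log2 ratio of 1, which is 2-fold, 1 gene (*Tnxb*) was higher, against 2.16% of all, and 0 were lower, against 1.19%. By the adjusted exact binomial p under 0.05, 4 were higher and 3 lower, where 18.6% and 16.8% of all genes tested were. These shares are not at like depth, because 8 of the 9 genes had at least 1000 counts, against 6385 of 12431 genes tested. At such counts even *Postn*, 1.05-fold lower, passed. The median log2 ratio was 0.05 over the 9 genes and 0.02 over all genes tested. The genes with at least 1000 counts, a set added after the data were seen, hold 8 of the 10. Of these, 1 was higher by at least 0.5 (*Fn1*), against 1.19% of all such genes, and 1 lower (*Tnn*), against 0.72%. In narrower ranges of count, 5.43% of the 92 genes with 30000 counts or more, *Fn1* among them, passed this limit in one direction or the other. Of the 2111 genes with 3000 to 10000 counts, *Tnn* among them, 1.42% did.

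Genes of like count give the spread of ratios in these libraries. Between 1000 and 3000 counts, 95% of 3796 genes had log2 ratios from -0.40 to 0.44, and *Tnc* lay below this range. Between 3000 and 10000 counts, 95% of 2111 genes lay from -0.37 to 0.37, and *Tnn* lay below. Among the 92 genes with 30000 counts or more, *Fn1* at 0.55 lay just above the range of -0.33 to 0.53, and *Thbs1* and *Sparc* lay inside. The spread between cultures was not measured. With a coefficient of variation of 0.2 assumed in its place, edgeR's exact test gave an unadjusted p of 0.182 for *Fn1*, 0.0657 for *Tnn*, 0.297 for *Tnc* and 0.00786 for *Tnxb*, each with an adjusted p of 1 over all genes tested.

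**Figure D3:**
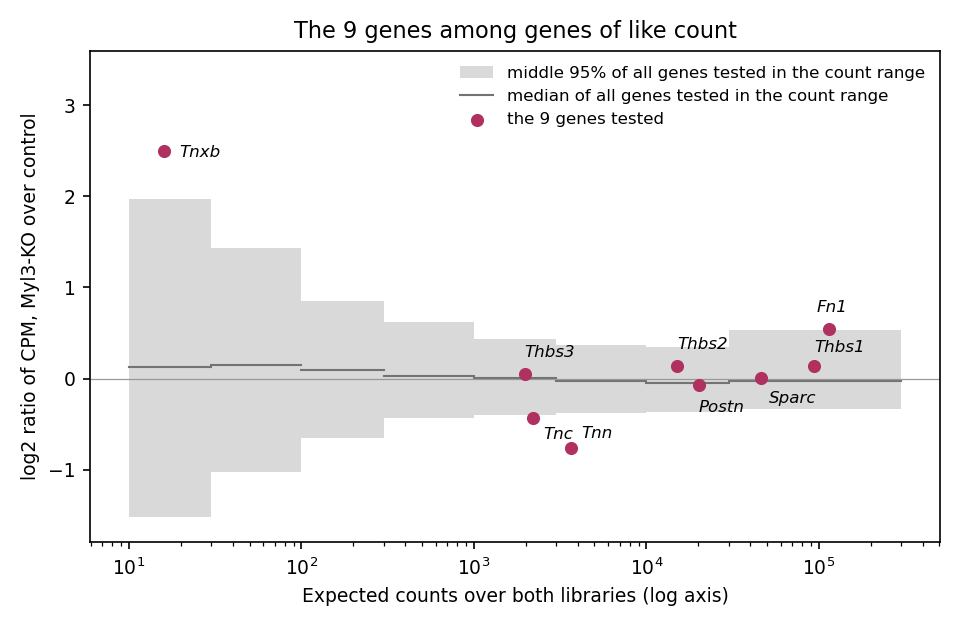
The log2 ratio of CPM, *Myl3*-KO over control, against the expected counts over both libraries on a log axis, with grey bands for the middle 95% and a line for the median of all genes tested in each count range. *Tnn* and *Tnc* lie below the bands, *Tnxb* above, and *Fn1* at the upper edge of the band of 92 genes.

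Related matricellular genes and COMP made a list of 18, of which 11 were tested. Their median log2 ratio was 0.22, and 11 of 11 were above 0, against 6553 of all 12431 genes tested. The 95% interval lay above 0 for 8 of the 11, against 2762 of all genes tested, and the rest lay within counting error. By at least 0.5, 2 were higher and 0 lower, against 7.99% and 3.75% of all genes tested. Those past the limit were *Ccn5* (named *Wisp2* in the table), a CCN family gene, which went from 374 to 548 counts (log2 ratio 0.94, 95% interval 0.74 to 1.13), and *Spp1*, which encodes osteopontin, from 207 to 247 (0.64, 0.37 to 0.91). Of the 6 listed genes with at least 1000 counts, 0 were higher by as much, against 1.19% of all genes so counted. *Fstl1*, a member of the SPARC family, had the highest level at 189.11 and 214.71 FPKM, with a log2 ratio of 0.18. *Sparcl1*, the closest relative of *Sparc*, and *Tnr*, the remaining tenascin, had 2 counts in each library.

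Of 17 receptor genes, 14 were tested, with a median log2 ratio of 0.37. By at least 0.5, 7 were higher and 0 lower, against 7.99% and 3.75% of all genes tested, but 5 of the 7 had under 100 counts over both libraries. Of all genes tested, 56.3% of those with 10 to 30 counts and 38.8% of those with 30 to 100 counts passed this limit in one direction or the other. Among the 8 receptor genes with at least 1000 counts, 2 were higher by at least 0.5, against 1.19% of all genes so counted. *Itgb5*, whose product pairs with the αv integrin, was counted 5218 and 6071 times, a log2 ratio of 0.60 (95% interval 0.55 to 0.66). *Lrp1*, which encodes an endocytic receptor that clears thrombospondins, had 4484 and 5170 counts, a log2 ratio of 0.59 (0.53 to 0.65). The other 5 were weakly counted, with *Itgb3* at 23 and 49 counts (log2 ratio 1.48), *Itga8* at 17 and 30 (1.21), *Itga9*, of a tenascin-C receptor, at 25 and 41 (1.10), *Itgb8* at 24 and 35 (0.93) and *Stab1*, which binds SPARC, at 7 and 8 (0.58, within counting error). The subunits of the main fibronectin receptor differed less. *Itga5* had a log2 ratio of 0.15, and *Itgb1*, which had the highest level of the list at 285.04 and 266.15 FPKM, one of -0.10.

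Among 19 genes of matrix partners, processing and degradation, 17 were tested, with a median log2 ratio of 0.28, and 3 were higher by at least 0.5 and 0 lower, against a median of 0.02 and shares of 7.99% and 3.75% for all genes tested. These were *Tgfb1*, the TGF-β1 gene (530 and 638 counts, log2 ratio 0.65), *Tgm2*, a transglutaminase that crosslinks fibronectin (1013 and 1159.99 counts, 0.58), and *Bmp1*, a procollagen proteinase gene (1091 and 1220 counts, 0.55). All 3 were among the 11 partner genes with at least 1000 counts, where 1.19% of all genes so counted were higher by as much. *Tgfb2* had a log2 ratio of -0.33. *Col1a1* had the highest level, 144.87 and 161.24 FPKM, with a log2 ratio of 0.15. The KEGG ECM-receptor interaction pathway, which in the deposited table lists 8 of the 10 genes and neither *Postn* nor *Sparc*, held 74 further genes. Of these 50 were tested, with a median log2 ratio of 0.23, and 21 were higher and 4 lower by at least 0.5, again against 7.99% and 3.75% of all genes tested. Of the 21, 14 had under 100 counts over both libraries, the range in which 38.8% to 56.3% of all genes passed the limit, and 4 had at least 1000. These 4 were among 21 pathway genes with at least 1000 counts, of which *Hmmr* was lower. Of all genes so counted, 1.19% were higher and 0.72% lower. The type VI collagen genes, whose chains form beaded microfibrils around cells, were among the higher, with *Col6a1* at 28929 and 34747 counts (log2 ratio 0.65), *Col6a2* at 15333 and 20630 (0.81) and *Col6a3* at 8100 and 9909 (0.68). Of the 4 lower, *Hmmr*, which encodes a hyaluronan-binding protein of dividing cells, had 1740 and 916 counts (-0.54), whereas *Lama4*, *Sv2a* and *Col4a4* had at most 11 counts in a library (-0.78, -0.75 and -0.61) and lay within counting error. Besides the genes named above, the higher ones had at most 146 counts in a library. Those whose interval lay above 0 were *Col4a2* (5 and 22 counts, log2 ratio 2.52), *Itgb7* (2 and 8, 1.80 with the 2 raised to the floor, interval 0.06 to 5.66), *Lamb3* (6 and 15, 1.71), *Lama5* (26 and 36, 0.86) and *Col6a4* (130 and 146, 0.55). *Itga10* and *Vwf* (22 and 29 counts each, 0.78), *Col9a3* (18 and 22, 0.68), *Itga6* (21 and 24, 0.58) and *Itga7* (44 and 49, 0.54) lay within counting error. These lists share genes, so their counts are not independent of each other.

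**Figure D4:**
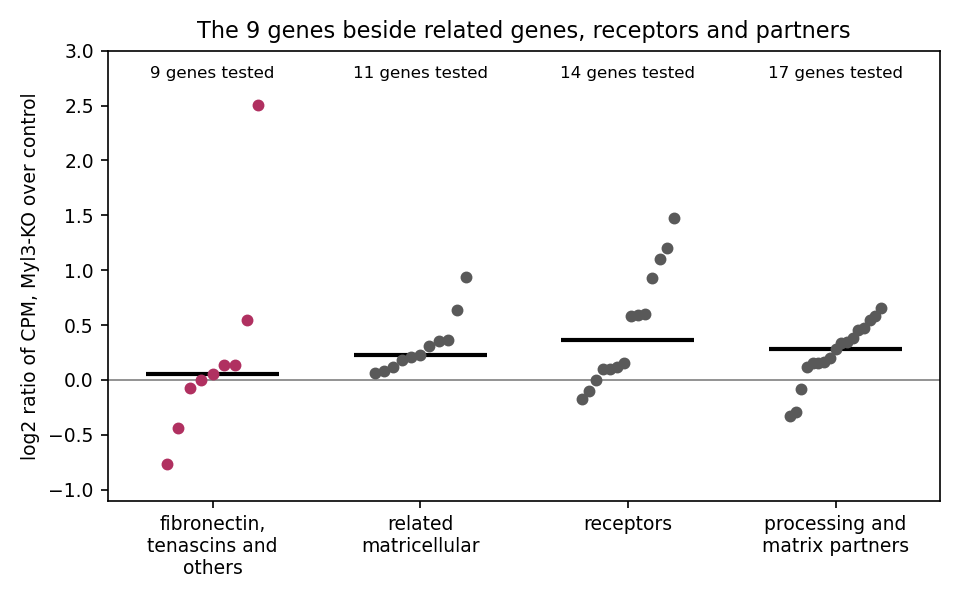
The log2 ratio of CPM, *Myl3*-KO over control, of each gene tested in 4 groups (9 of the genes described here, 11 related matricellular genes, 14 receptors and 17 partners), with a bar at the median of each group. The medians are 0.05, 0.22, 0.37 and 0.28, and *Tnn* and *Tnc* are the lowest points drawn.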

How the data were processed

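RNA sequencing of 1 control and 1 *Myl3*-KO library of primary chondrocytes was analysed. For 22156 genes the authors deposited FPKM values and expected counts, the latter being estimated read counts without normalization. The submitters' processing notes name the builds GRCm38 and mm10, while the aligner, the counting tool and the strand setting are not given in the sources used here. The expected counts of the 10 genes were whole numbers.

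Counts were divided by the library total. The log2 ratio raised counts under 3 to 3, and the intervals and the two-sided exact binomial test used counts rounded to whole numbers. The 12431 genes counted at least 10 times in the 2 libraries together were tested, with Benjamini-Hochberg adjustment. With 1 library per genotype, neither the quasi-likelihood test of edgeR nor DESeq2 leaves residual degrees of freedom, so no p-value compares genotypes. The width of each interval is set by the gene's own counts, out of library totals of 17612434.91 and 13477976.98 expected counts. The intervals of ratios of 2 genes within a library use the normal approximation on the log scale.

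The 10 genes, the lists and the limits were chosen with earlier results of these data known. All 10 genes were named, and from the lists those past a log2 ratio of 0.5, those with the highest FPKM and the cell type markers. A few others (*Tnr*, *Sparcl1*, *Comp*, *Itga5* and *Tgfb2*) were named after their values were seen. Likeness of pattern was not ranked, because 2 libraries give no pattern. Alternatives were TMM and DESeq2 scaling, totals without the 10 most abundant genes (*Fn1* and *Thbs1* among them), other filters, 1 added count, FPKM ratios, rounding, and the exact test of edgeR with an assumed coefficient of variation of 0.2 or 0.4. Gene coordinates were read from GENCODE M21 (GRCm38), and promoters from RefSeq on GRCm38.p6. Promoter sequences other than the one shown are not reported here. The test was checked on simulated counts that varied by counting error alone, so the check does not bear on the spread between cultures. Tests ran in scipy 1.17.1 under Python 3.11.15 (pandas 2.3.3, numpy 2.4.6, matplotlib 3.10.9), and scaling in edgeR 4.0.16 and DESeq2 1.42.0 under R 4.3.3.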

Additional observations from a re-analysis of the deposited data

How the results depend on the processing

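With at least 10 counts required in each library, *Tnxb* was no longer tested, so that 1 of the genes was higher by at least 0.5 on the log2 scale in place of 2, and 0 were past 2-fold in place of 1. None of the other scalings, filters, added counts, rounding or FPKM ratios tried moved these counts, that of the lower genes or the median by more than the limits set, and the median log2 ratio ranged from 0.027 to 0.094. Over library totals, TMM scaling, DESeq2 size factors and totals without the 10 most abundant genes, the log2 ratio ranged from 0.53 to 0.56 for *Fn1*, from -0.78 to -0.75 for *Tnn* and from -0.45 to -0.42 for *Tnc*, while that of *Sparc* changed sign (-0.01 to 0.02). The 7 genes past an adjusted exact binomial p of 0.05 were all lost when the exact test of edgeR assumed a coefficient of variation of 0.2 or 0.4 (adjusted p of 1), which called 4 and 1 of all 12431 genes. No paired analysis was possible because each genotype has 1 library, and no replicate could be left out. Depth limits *Tnxb*, *Thbs4* and the weakly counted integrin genes.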
